A study of Mus musculus with 7 samples.

Results

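The HIF pathway and hypoxia target genes described here are 10 named genes: the factors Hif1a and Epas1, the hydroxylases Egln1 and Egln3, and the targets Pdk1, Bnip3, Hilpda, Adm, Ndrg1 and Ankrd37. They were taken by symbol from the 55385 gene IDs of each file, and all 10 were matched and passed the filter on low counts that left 15448 genes to test. Messenger RNA came from tumour-associated macrophages of C57BL/6 mice, sorted by flow cytometry from intracranial tumours of QPP7 cells, a mouse glioma line that the labels call isogenic, with 100000 cells injected per mouse. Before injection the cells received either a Chi3l1 knockdown hairpin, giving 3 shChi3l1 libraries, or a control vector, giving 4 shSC libraries. Only the tumour cells carried a hairpin, and the comparison asks how host macrophages differ between the 2 kinds of tumour. The sources used here state neither the age of the mice, nor the sort antibodies, nor whether each library is 1 mouse. P-values below therefore reflect library-to-library spread, which may be partly technical.

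Hypoxia-inducible factors are dimers of an oxygen-regulated alpha subunit with the constant subunit ARNT. In oxygen, prolyl hydroxylases of the EGLN family mark the alpha subunit for destruction by the VHL ubiquitin ligase. When oxygen is short, the alpha subunit is stable and the dimer turns on genes of glycolysis, mitochondrial turnover, lipid storage and vessel growth. Regulation of the alpha subunits is largely at the protein level, which messenger RNA does not show. Macrophages gather in poorly perfused zones of gliomas and use these factors there, and inflammatory signals also raise Hif1a transcription in them.

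None of the 10 genes passed edgeR's test between macrophages of shChi3l1 and shSC tumours at an adjusted p under 0.05. Hif1a and Ndrg1 had the largest differences, in opposite directions, and neither passed the test. Several of the genes differed by replicate number, as did many genes of the whole table. Both replicate 1 libraries lay below the other 5 for 4 of the 10 genes and above them for 1. The shares of all tested genes were 19.6% and 20.5%. In the libraries numbered 1 of both hairpins, Hilpda was high, and Hif1a, Ndrg1 and Epas1 were low. Averaged over the 10 genes, log2 CPM relative to each gene's own mean was highest in shSC 4.

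Reads assigned to genes ranged from 23174989 to 36502664 in the shChi3l1 libraries and from 19169129 to 32590781 in the shSC libraries. All 10 macrophage markers (among them Cd68, Csf1r, Adgre1 and Lyz2) exceeded 1 CPM, the count scaled to library size, in every library. Their sum was 34941 to 54485 CPM in shChi3l1 and 26633 to 36728 CPM in shSC libraries. Single markers differed between libraries in both directions. Csf1r had 249 CPM in shChi3l1 1 against 2613 and 2359 CPM in shChi3l1 2 and 3, where Fcgr1 had 548 against 251 and 301 CPM. The replicate 1 libraries stood apart from the rest over the whole table: in 20.5% of tested genes both lay above the other 5 libraries, and in 19.6% both lay below. They also held fewer reads in long genes. Genes of over 5000 exon bases took 12.6% of reads in shChi3l1 1 and 14.8% in shSC 1, against 18.6% and 20.7% in the other shChi3l1 libraries and 16.8% to 19.9% in the other shSC libraries. The fold changes of the 10 genes were therefore also computed without both replicate 1 libraries, and the plot of fold changes shows all 10.

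Levels of the 10 genes, compared per kilobase of exon, spanned a wide range. Hilpda averaged 510 ± 306 CPM per kilobase (SD over 7 libraries), at percentile 99.2 of tested genes, and its lowest library, at 208, was above every library of the other 9. Bnip3 averaged 43.3 ± 23.4 and Hif1a 24.5 ± 13.5 CPM per kilobase, with ranges that overlapped. Pdk1 (4.02 ± 0.598), Ankrd37 (3.05 ± 1.19), Ndrg1 (2.91 ± 1.60), Egln3 (2.20 ± 0.875), Adm (1.60 ± 0.543) and Egln1 (1.54 ± 0.446 CPM per kilobase) followed. Among these 6, neighbours in the order had overlapping ranges. Epas1 was the lowest at 0.243 ± 0.171 CPM per kilobase, and its highest library, at 0.487, was below every library of the others. The 2 alpha subunits thus stood at percentile 87.0 (Hif1a) and percentile 13.6 (Epas1) of tested genes.

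**Figure D1:**
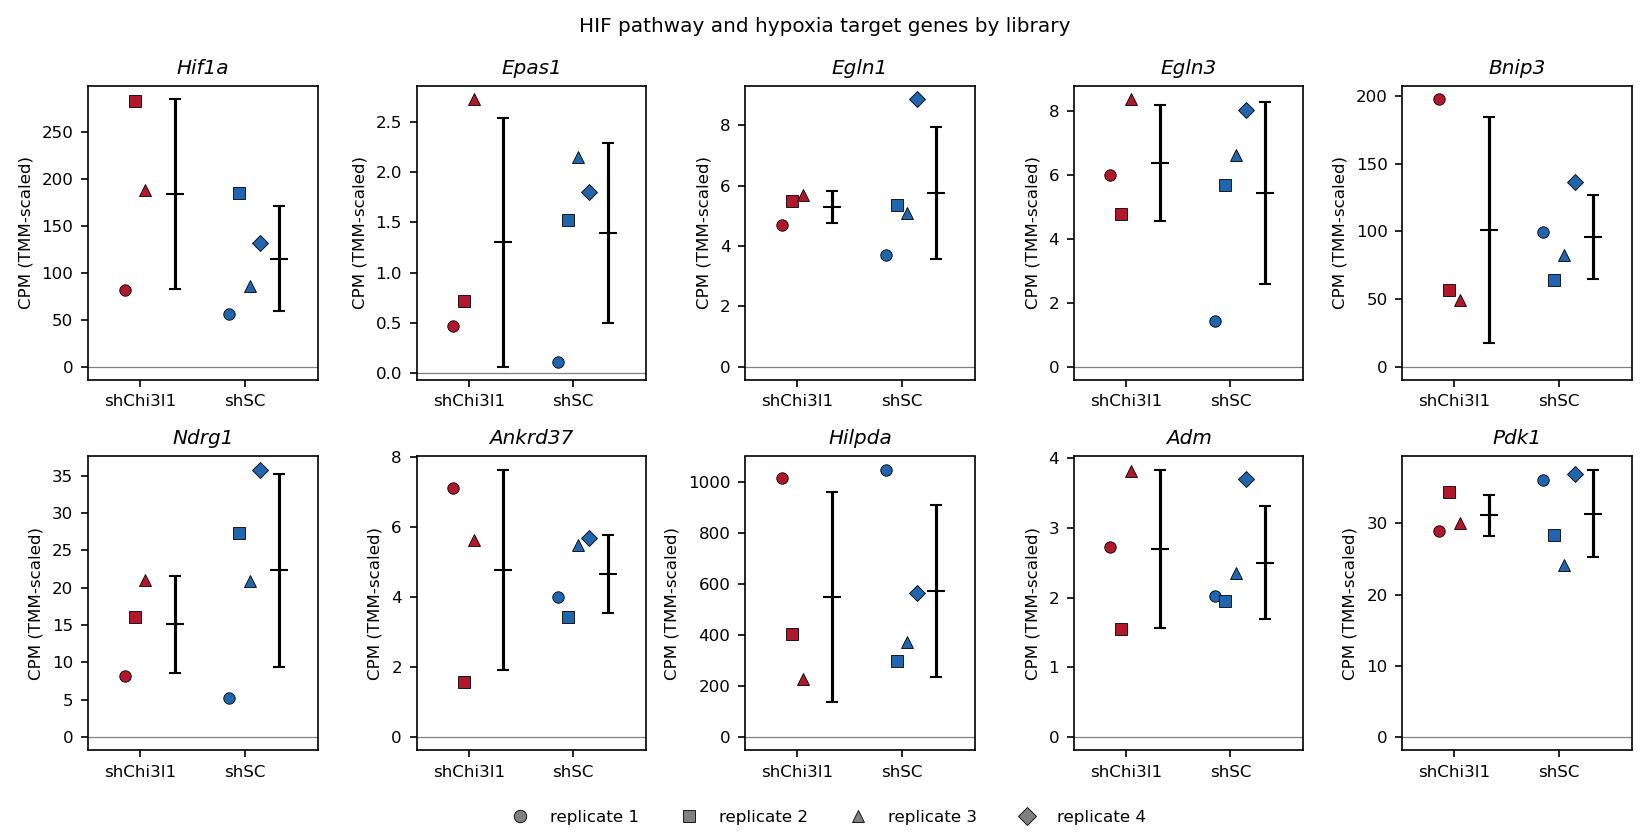
CPM in each library for the 10 genes, with shChi3l1 left of shSC, a symbol for each replicate number, and black bars for the mean and SD of each group. The groups overlap in every panel, and the replicate 1 libraries lie together at the top for Hilpda (1015 and 1048 CPM) and at the bottom for Hif1a (81.0 and 56.4 CPM).

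Promoter sequence is shown for 4 of the genes that the results turn on: Hilpda, the most abundant and high in both replicate 1 libraries, Hif1a, low in both and with the largest fold change, and Bnip3 and Egln3, whose fold changes turned on a replicate 1 library. The windows lie up to 250 bases before a RefSeq start (build GRCm38.p6, 5′ to 3′ on the gene's strand) and leave out bases inside annotated exons of the gene. Capitals mark ACGTG and GCGTG on either strand, the core letters of the hypoxia response element; where 2 matches share bases they form CACGTG, which is also an E-box. The RefSeq start used for Hif1a lies inside the gene as the count files annotate it.
Hilpda, plus strand, chr6:29272238-29272487: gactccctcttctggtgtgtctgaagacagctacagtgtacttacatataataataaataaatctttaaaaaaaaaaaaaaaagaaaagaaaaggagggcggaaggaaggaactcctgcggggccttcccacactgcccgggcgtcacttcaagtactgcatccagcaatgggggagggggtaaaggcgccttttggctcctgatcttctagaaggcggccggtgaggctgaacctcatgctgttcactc
Bnip3, minus strand, chr7:138909520-138909756: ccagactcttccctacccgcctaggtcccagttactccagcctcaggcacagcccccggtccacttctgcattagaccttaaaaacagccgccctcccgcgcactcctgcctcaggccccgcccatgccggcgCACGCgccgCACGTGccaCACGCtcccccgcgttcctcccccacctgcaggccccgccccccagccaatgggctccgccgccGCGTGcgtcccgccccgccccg
Hif1a, plus strand, chr12:73907617-73907866: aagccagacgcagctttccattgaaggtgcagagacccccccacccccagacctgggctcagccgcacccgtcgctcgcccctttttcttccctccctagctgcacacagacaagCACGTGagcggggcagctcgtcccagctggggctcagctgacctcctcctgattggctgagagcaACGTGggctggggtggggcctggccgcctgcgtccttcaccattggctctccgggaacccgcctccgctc
Egln3, minus strand, chr12:54203875-54204124: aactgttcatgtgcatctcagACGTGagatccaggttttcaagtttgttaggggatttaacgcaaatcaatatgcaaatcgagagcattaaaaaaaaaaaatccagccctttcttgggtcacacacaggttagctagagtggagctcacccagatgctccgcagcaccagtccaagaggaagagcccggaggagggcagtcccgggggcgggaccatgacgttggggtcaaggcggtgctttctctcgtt

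The Bnip3 window held 5 matches, Hif1a 3, Egln3 1 and this Hilpda window 0. A window at a second Hilpda start held 3, and it is not printed because it runs through an annotated exon of the gene and beyond it. Of the 10 genes 8 had windows in the table, and each of the 8 had a match in at least 1 of its windows. Counted by window, 8 of their 10 windows held a match. Of all 32851 windows of the same length, 38.6% held a match, and 6.02% held CACGTG. Before exons were left out, the 4 printed genes' windows held 48.4% (Hilpda), 72.4% (Bnip3), 66.4% (Hif1a) and 50.8% (Egln3) G and C. The first windows of Egln1, Ankrd37, Pdk1 and Adm held 86.0%, 67.6%, 64.0% and 56.8%. The median over all windows was 52.4%. A match describes the letters and is not a binding site. Epas1 and Ndrg1 were not matched in the table.

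Hif1a encodes the alpha subunit HIF-1α, a hypoxia factor that macrophages use widely. Hif1a (ENSMUSG00000021109.13, mm10 chromosome 12, 73901375 to 73947530, plus strand) had 81.0, 282 and 187 CPM in shChi3l1 replicates 1, 2 and 3, against 56.4, 184, 86.1 and 132 CPM in shSC replicates 1 to 4. The groups overlapped, and within each hairpin the replicate 1 library was the lowest. Mean levels were 184 ± 101 CPM for shChi3l1 (SD, n = 3) and 115 ± 55.8 CPM for shSC (SD, n = 4). This gave a log2 fold change of 0.68 (SE 0.52), an edgeR quasi-likelihood p of 0.223 and, adjusted over all genes, a p of 0.9998. Within the same-numbered libraries Hif1a was higher in shChi3l1 in all 3 pairs, with log2 ratios of 0.52, 0.61 and 1.12 in numbers 1, 2 and 3. With replicate number as a block, its log2 fold change was 0.75 (SE 0.22) with an unadjusted edgeR p of 0.0148 and an adjusted p of 1.0. In that fit 2.05% of tested genes were higher at an unadjusted p under 0.05. Without both replicate 1 libraries the log2 fold change was 0.77 (SE 0.37). Other annotated genes overlap 8.1% of the exon bases of Hif1a, and the library kit does not mark strand, so those reads may be shared.

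Epas1 encodes HIF-2α, which is best known from endothelium and from hypoxic and interleukin-stimulated macrophages. It rested on few reads, 11, 24 and 67 in shChi3l1 and 3, 54, 63 and 42 in shSC libraries. These made 0.468, 0.713 and 2.72 CPM in shChi3l1 replicates 1 to 3 and 0.106, 1.52, 2.15 and 1.81 CPM in shSC replicates 1 to 4. The replicate 1 libraries were the 2 lowest, and shChi3l1 3 was the highest. The log2 fold change of -0.10 had an SE of 0.95 (edgeR adjusted p = 0.9998), so no difference was detectable at this depth and spread. All 12 endothelial markers were tested, and none was at 0 in every library. Their summed level was 46.1 to 190 CPM in shChi3l1 and 38.7 to 105 CPM in shSC libraries. It was highest in shChi3l1 3 and lowest in shSC 1, the same libraries as for Epas1. Summed B-cell markers had the same highest and lowest libraries, at 355 and 44.4 CPM. Summed microglia markers and summed fibroblast and pericyte markers were also highest in shChi3l1 3. Of the endothelial markers, Pecam1 and Flt1 were highest in shSC 2, Kdr in shChi3l1 2 and the others in shChi3l1 3. The part of these cells in the Epas1 values was not tested. Fewer cells of a type and less RNA per cell cannot be told apart in bulk samples.

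The prolyl hydroxylase genes Egln1 and Egln3 encode PHD2 and PHD3, the oxygen sensors that mark HIF alpha subunits, and both are themselves HIF targets. Egln3 had 6.00, 4.78 and 8.37 CPM in shChi3l1 replicates 1 to 3, against 1.42, 5.70, 6.62 and 8.04 CPM in shSC replicates 1 to 4. All but shSC 1 lay within 4.78 to 8.37 CPM. The log2 fold change of Egln3 was 0.23 (SE 0.56), and it was -0.12 (SE 0.40) without shSC 1. Egln1 had 4.68 to 5.69 CPM in shChi3l1 and 3.69 to 8.86 CPM in shSC libraries, with shSC 4 the highest and both replicate 1 libraries the lowest. Its log2 fold change was -0.12 (SE 0.41), without shSC 4 it was 0.17 (SE 0.40), and without both replicate 1 libraries it was -0.25 (SE 0.41). Egln1 was higher in shChi3l1 in each of the 3 same-numbered pairs, by 0.34, 0.04 and 0.16 on the log2 scale. With Hif1a this made 2 of the 10 genes that were higher in all 3 pairs and 0 that were lower in all 3, against 12.5% and 10.7% of all tested genes.

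Among the metabolic targets, Hilpda encodes an inhibitor of the lipase ATGL and so promotes lipid droplets in hypoxic cells and in macrophages. Hilpda (ENSMUSG00000043421.8, chromosome 6, 29272488 to 29275446, plus strand) had 1015, 403 and 229 CPM in shChi3l1 replicates 1 to 3, against 1048, 300, 373 and 566 CPM in shSC replicates 1 to 4. Both replicate 1 libraries stood above the other 5, of which shSC 4 was the highest, and the groups overlapped. Mean levels were 549 ± 413 CPM for shChi3l1 (SD, n = 3) and 572 ± 337 CPM for shSC (SD, n = 4). On the log2 scale the fold change was -0.06 (SE 0.60), and without both replicate 1 libraries it was -0.44 (SE 0.40). Summed markers of T and NK cells were also high in the replicate 1 libraries, at 1195 CPM in shChi3l1 1 and 816 CPM in shSC 1, within ranges of 114 to 1195 CPM in shChi3l1 and 114 to 816 CPM in shSC libraries. The next highest was shSC 3, at 785 CPM. All 10 of these markers were tested and none was at 0 in every library. The granzyme gene Gzma made up most of the sum, with 943 CPM in shChi3l1 1 and 741 CPM in shSC 1. Most of the other markers were not high in shSC 1. Cd3e, Cd3d, Cd3g, Cd4, Cd8a, Lck and Trac were each lower there than in shSC 2 and shSC 3. Cd8a, for example, had 0.213 CPM in shSC 1, against 13.9 CPM in shSC 2 and 43.1 CPM in shSC 3. Klrb1c in shSC 1 lay between those libraries, and Ncr1 lay above both. The part of T and NK cells in the Hilpda values was not tested.

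Bnip3 encodes a mitochondrial outer-membrane protein that recruits the autophagy machinery. It had 198, 56.4 and 49.1 CPM in shChi3l1 replicates 1 to 3, against 99.7, 64.1, 82.6 and 136 CPM in shSC replicates 1 to 4. One library, shChi3l1 1, held the highest value while the other 2 shChi3l1 libraries held the lowest values of all 7. With all libraries its log2 fold change was 0.08 (SE 0.53). Without shChi3l1 1 it was -0.90 (SE 0.39), and without both replicate 1 libraries -0.89 (SE 0.38, edgeR adjusted p = 0.789). Leaving out both was chosen after seeing the data. The antisense Gm45507 overlaps 22.3% of the exon bases of Bnip3, so part of its reads may belong to that gene.

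Pdk1 encodes a kinase that inhibits pyruvate dehydrogenase and keeps pyruvate from mitochondrial oxidation. It varied least, with 28.9, 34.4 and 30.0 CPM in shChi3l1 replicates 1 to 3, against 36.1, 28.3, 24.2 and 36.9 CPM in shSC replicates 1 to 4. The highest library was 1.53-fold above the lowest, compared with 2.40-fold to 25.6-fold for the other 9 genes. Its log2 fold change of -0.01 had an SE of 0.30, the smallest error of the 10. In these values Pdk1 was not among the genes that followed the replicate number, although its 7779 exon bases make it the longest of the 10. After each library's trend with exon length was removed, mean log2 CPM of Pdk1 in the replicate 1 libraries was 0.81 above the rest.

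Of the remaining targets, Ndrg1, a stress-response and differentiation gene that is also abundant in myelinating glia, had 8.13, 16.0 and 21.1 CPM in shChi3l1 replicates 1 to 3, against 5.28, 27.3, 20.9 and 35.8 CPM in shSC replicates 1 to 4. The replicate 1 libraries were the 2 lowest and shSC 4 was the highest. This made a log2 fold change of -0.56 (SE 0.60, edgeR adjusted p = 0.9998), which was -0.05 (SE 0.34) with the replicate block, which leaves out shSC 4. Of the tumour and glial markers 13 of 14 were tested, and none was at 0 in every library. Their sum was 13.8 to 90.7 CPM in shChi3l1 and 42.6 to 357 CPM in shSC libraries, with shSC 4 the highest. Among the shSC libraries the sum and Ndrg1 had the same order. Among the shChi3l1 libraries the order was opposite, with sums of 90.7, 36.2 and 13.8 CPM in replicates 1 to 3. The part of tumour and glial cells in the Ndrg1 values was not tested.

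Adm, which encodes the vasodilator peptide adrenomedullin, had 1.55 to 3.82 CPM in shChi3l1 and 1.95 to 3.70 CPM in shSC libraries, from 52 to 94 reads per library in shChi3l1 and 57 to 86 in shSC. Its log2 fold change was 0.11 (SE 0.50). Ankrd37, a small ankyrin-repeat protein gene that hypoxia induces in many cell types, had 7.11, 1.57 and 5.61 CPM in shChi3l1 replicates 1 to 3 and 3.42 to 5.68 CPM in shSC libraries. The shChi3l1 libraries thus held its highest and its lowest value. Ankrd37 had a log2 fold change of 0.03 (SE 0.54), and Lrp2bp and Ufsp2 on the opposite strand overlap 26.4% of its exon bases.

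**Figure D2:**
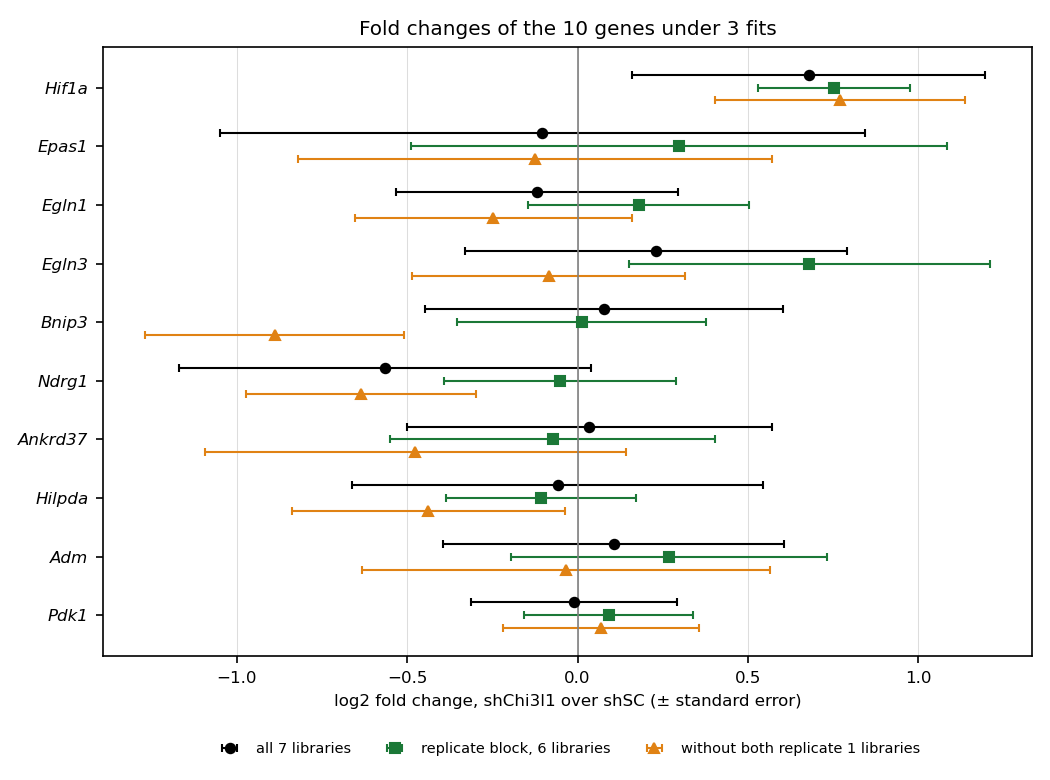
Log2 fold changes of the 10 genes, shChi3l1 over shSC, with standard errors, from all 7 libraries, from the 6 same-numbered libraries with a replicate block, and without both replicate 1 libraries. Hif1a lies to the right of 0 in each fit (0.68, 0.75 and 0.77), and Bnip3 is at 0.08 with all libraries and at -0.89 without the replicate 1 libraries.

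As a set, 5 of the 10 log2 fold changes were above 0 and 5 below, beside 57.6% and 42.4% of those of all tested genes. Their median was 0.01, and that of all tested genes was 0.07. The median size of the change, regardless of sign, was 0.10 for the 10 genes and 0.27 for all tested genes, with median standard errors of 0.53 and 0.55. At an adjusted p under 0.05 edgeR called 0 of the 10, each of which had an adjusted p of 0.9998, and 0% of all tested genes in either direction. DESeq2's Wald test and limma's voom also called 0 of the 10. At an unadjusted p under 0.05 edgeR had 0 of the 10, against 0.906% of tested genes higher and 0.576% lower. The groups did not overlap in 0 of the 10, against 1.24% of tested genes higher and 1.25% lower in shChi3l1. These shares are small, so 0 of 10 does not set the genes apart, and it does not show that they did not differ.

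The levels also varied with replicate number. Means of the same-numbered libraries differed, between the highest and lowest of the 3 numbers, by a median of 1.30 on the log2 scale over the 10 genes and 1.13 over all tested genes. Both replicate 1 libraries lay below the other 5 for 4 of the 10 genes (Hif1a, Epas1, Egln1 and Ndrg1) and above them for 1 (Hilpda), beside the 19.6% and 20.5% of all tested genes given above. The mean log2 CPM of the replicate 1 libraries minus that of the other 5 was -1.26 for Hif1a, -1.83 for Ndrg1, -2.74 for Epas1 and 1.53 for Hilpda. After each library's trend with exon length was removed, these differences were -0.67, -1.18, -2.19 and 1.04. For Egln3 they were -1.16 and -1.18, and for Pdk1 they were 0.09 and 0.81. The removal thus brought Hif1a, Ndrg1, Epas1 and Hilpda closer to 0, left Egln3 where it was and moved Pdk1 away from 0.

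**Figure D3:**
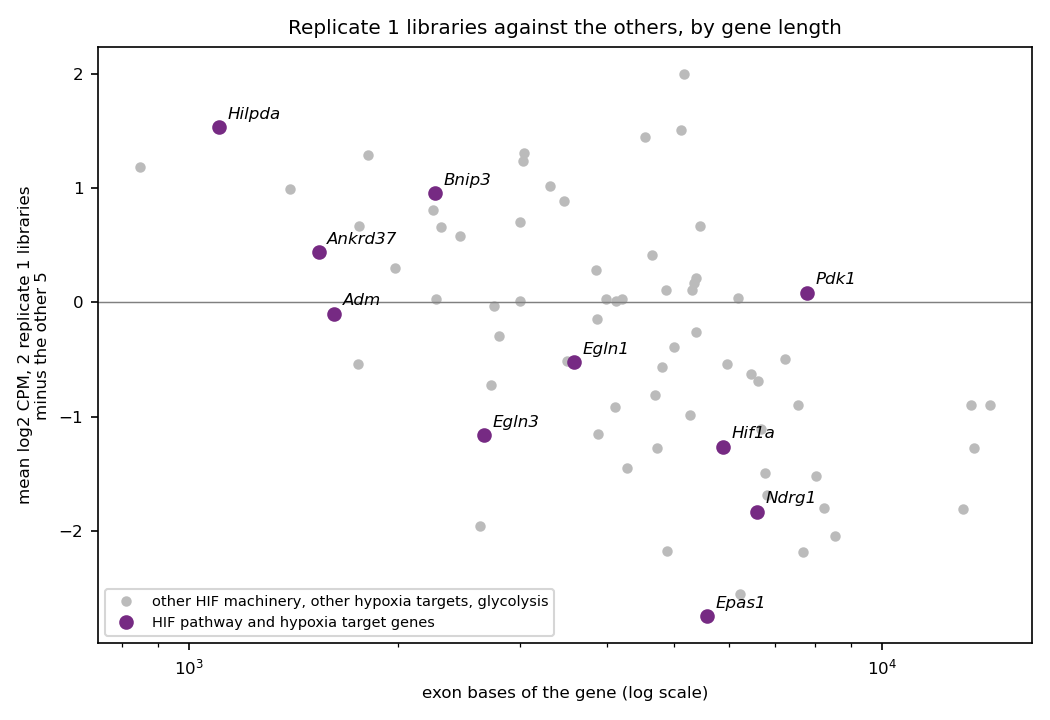
Mean log2 CPM of the 2 replicate 1 libraries minus that of the other 5, against the exon bases of each gene on a log scale, for the 10 genes (purple, named) and the genes of the 3 related lists (grey). Hilpda, the shortest of the 10 at 1103 bases, is at 1.53, Ndrg1 at 6596 bases is at -1.83, and Pdk1 at 7779 bases is at 0.09.

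The library shSC 4 was among the 2 highest of the 7 for 7 of the 10 genes (Egln1, Egln3, Bnip3, Ndrg1, Ankrd37, Adm and Pdk1) and among the 2 lowest for 0, beside 24.5% and 28.3% of all tested genes. Averaged over the 10 genes, its log2 CPM was 0.56 above the gene means, against -0.70 in shSC 1. The shChi3l1 averages were 0.04, -0.22 and 0.23 in replicates 1, 2 and 3. Without shSC 4 the median log2 fold change of the 10 genes was 0.16. The same library was the highest in tumour and glial markers and had the fewest reads of the 7.

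**Figure D4:**
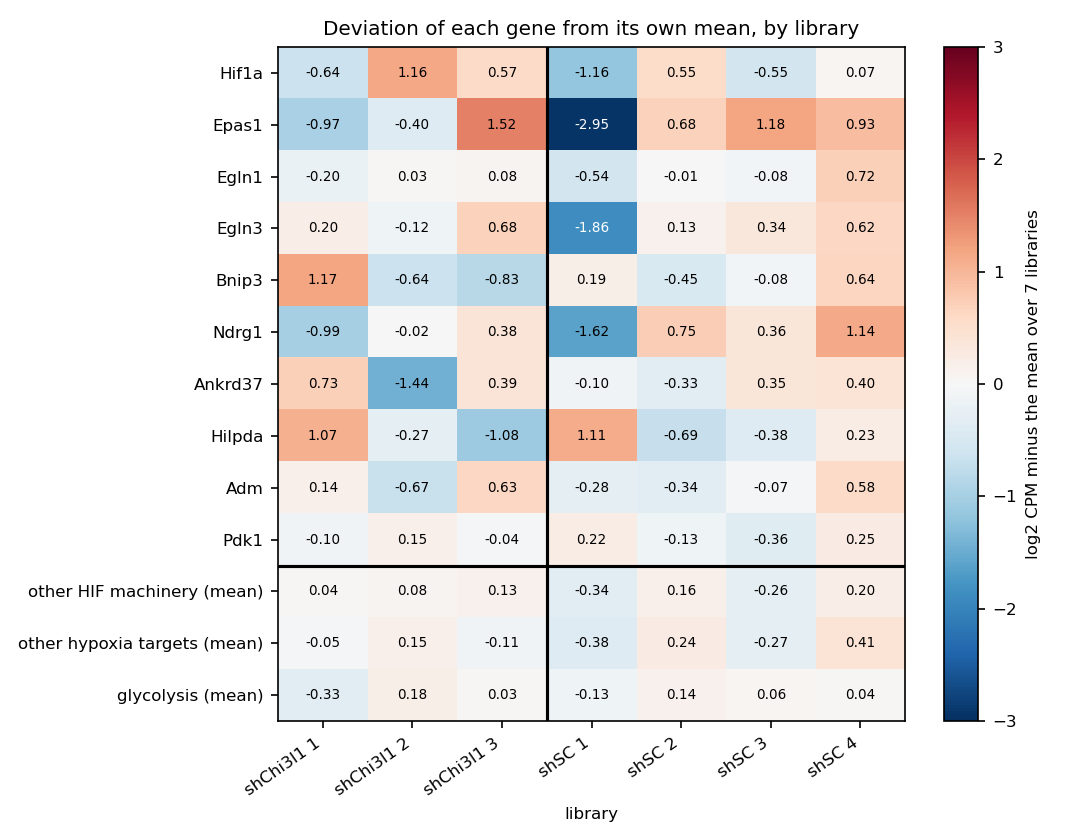
Log2 CPM of each gene minus its mean over the 7 libraries, with shChi3l1 libraries left of shSC libraries, and the same averaged over 3 related lists below the line. The columns for shChi3l1 1 and shSC 1 hold the low values of Hif1a, Epas1 and Ndrg1 and the high values of Hilpda, and 9 of the 10 genes are at or above 0.20 in shSC 4.

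The genes most like each of the 10 over the 7 libraries, by the root-mean-square difference of gene-centred log2 CPM among 8997 or 8998 genes, were not other members. For Hilpda the nearest gene was Blvra, a biliverdin reductase gene (difference 0.09), and for Pdk1 it was Cers5, a ceramide synthase gene (0.09). For Hif1a it was Stim2, a calcium sensor gene (0.12), and for Egln1 it was Rnps1, of RNA processing (0.14). Ndrg1 was nearest to Rsrc2 (0.17), Bnip3 to Phpt1 (0.17), Egln3 to Usp34 (0.19) and Adm to Inafm1 (0.20). The most distant pairs were Ankrd37 with Them4 (0.29) and Epas1 with Kcnq1ot1 (0.49). Hilpda and Bnip3 were each other's nearest member, at 0.44, where Bnip3 ranked 1009 of 8997 for Hilpda. The smallest rank of any member was that of Ndrg1 for Epas1, at 32.

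Other components of the HIF machinery were taken from a list of 17 genes, of which 16 were tested and Hif3a was too low. EdgeR's test passed 0 in either direction, with 10 fold changes above 0 and 6 below and a log2 median of 0.12. Arnt, the constant partner subunit, had 6.21, 34.7 and 26.8 CPM in shChi3l1 replicates 1 to 3 and 9.86, 23.7, 12.1 and 21.4 CPM in shSC replicates 1 to 4, with both replicate 1 libraries the lowest as for Hif1a. Hif1an, which encodes the asparaginyl hydroxylase FIH, was at 0.46 (SE 0.40). Cited2, a HIF-induced competitor for the coactivators p300 and CBP, had 45.6, 33.9 and 24.9 CPM in shChi3l1 and 18.3 to 27.4 CPM in shSC libraries. Its fold change of 0.64 on the log2 scale (SE 0.33) had an unadjusted edgeR p of 0.0815. On the lower side P4htm, a membrane-bound prolyl hydroxylase gene, was at -1.62 (SE 0.74) from levels of at most 1.68 CPM. Crebbp, encoding CBP, and Egln2, encoding PHD1, were at -0.13 (SE 0.52) and -0.08 (SE 0.31). Elob, a subunit of the VHL ligase, was the most abundant per kilobase, at 192 CPM per kilobase.

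Other hypoxia targets, 30 of 32 tested, had 17 fold changes above 0 and 13 below with a log2 median of 0.06, and 0 passed in either direction. Vegfa, the vessel growth factor, was the only one with an unadjusted edgeR p under 0.05 (0.0418, adjusted p = 0.9998). It had 112, 358 and 234 CPM in shChi3l1 replicates 1 to 3, against 34.9, 132, 111 and 117 CPM in shSC replicates 1 to 4. Like Hif1a it was lowest in the replicate 1 library of shSC and highest in shChi3l1 2, with overlap of shChi3l1 1 and the shSC libraries, and its log2 fold change was 1.25 (SE 0.53). Without both replicate 1 libraries it was 1.26 (SE 0.27, edgeR adjusted p = 0.789). Leaving out 1 library at a time gave 0.81 to 1.56, with an unadjusted p under 0.05 in 2 of the 7 fits. Gbe1, a glycogen branching enzyme gene, was at 0.57 (SE 0.34). P4ha2, a collagen prolyl hydroxylase gene, was at -1.01 (SE 0.86) and Selenbp1 at -0.41 (SE 0.34). Hmox1, the heme oxygenase gene and the most abundant per kilobase of the list, had 251 to 359 CPM in shChi3l1 and 249 to 924 CPM in shSC libraries, with shSC 4 the highest and a fold change of -0.53 on the log2 scale (SE 0.51).

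Glycolysis genes, 17 of 18 tested because Aldoa has 2 gene IDs, had 8 above 0 and 9 below with a median of -0.02, and 0 passed. Slc2a1, the main glucose transporter gene that HIF-1 induces, was at 0.46 (SE 0.33), and Hk2, a hexokinase gene, was at 0.59 (SE 0.40). Pfkfb3, which raises the flux through phosphofructokinase, was at 0.43 (SE 0.40). Slc2a3, another glucose transporter gene, had 3.32, 2.73 and 1.79 CPM in shChi3l1 replicates 1 to 3, against 4.01, 10.0, 10.3 and 7.14 CPM in shSC replicates 1 to 4. Its log2 fold change was -1.59 (SE 0.48), with an unadjusted edgeR p of 0.0083, the smallest of all listed genes, and an adjusted p of 0.9998. It was -2.05 (SE 0.40, edgeR adjusted p = 0.789) without both replicate 1 libraries. With 1 library left out it was -1.84 to -1.38, and the unadjusted edgeR p stayed under 0.05 in 7 of the 7 fits. Slc2a3, like Vegfa above, was named for its small p in these same libraries, so such fits are not an independent check. Gapdh was at -0.32 (SE 0.29). In both Slc2a3 and Gapdh every shChi3l1 library was below every shSC library, which makes 2 of 17 against the 1.25% of tested genes given above. In the other HIF machinery and other hypoxia targets lists, the groups did not overlap in 0 of 16 and 0 of 30 genes. These counts were not tested. Eno1, the enolase gene, was at -0.29 (SE 0.33). Ldha, the lactate dehydrogenase gene and the most abundant per kilobase, was at -0.07 (SE 0.46), with 3396 CPM in shChi3l1 1 and 3304 CPM in shSC 1 against 1345 to 2296 CPM in the other 5 libraries. Without both replicate 1 libraries Ldha was at -0.37 (SE 0.31), Eno1 at -0.16 (SE 0.27) and Egln2 at 0.05 (SE 0.24).

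Markers of other cells that a sort could hold gave summed levels as follows. Microglia markers had 1223 to 4599.7 CPM in shChi3l1 and 1035 to 1705 CPM in shSC libraries. B-cell markers had 69.7 to 355 CPM in shChi3l1 and 44.4 to 205 CPM in shSC libraries. Neutrophil markers, 5 of 10 of them tested, had 88.5 to 148 CPM in shChi3l1 and 45.7 to 127 CPM in shSC libraries. Csf3r made up most of this sum in shChi3l1 2 and 3, at 139 and 141 CPM, where S100a8 had 3.27 and 3.37 CPM. In shChi3l1 1 S100a8 had 67.4 CPM and Csf3r 14.6 CPM. Fibroblast and pericyte markers had 3.39 to 32.8 CPM in shChi3l1 and 6.67 to 25.8 CPM in shSC libraries. Red cell markers had 2.56 to 32.9 CPM in shChi3l1 and 6.10 to 77.5 CPM in shSC libraries. Per kilobase, the most abundant marker was Cd79a for B cells, S100a8 for neutrophils, Acta2 for fibroblasts and pericytes, Hbb-bs for red cells, Ly6c1 for endothelium and Fabp7 for tumour and glia. Their part in the values of the 10 genes was not tested.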

How the data were processed

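RNA input was 10 ng for cDNA synthesis (SMART-Seq ultra low input) and 1 ng of cDNA for Nextera XT libraries, per the labels' protocols. The authors deposited 1 table per library of raw read counts, in whole numbers, with summed exon lengths. The submitters' processing notes name Trim Galore, HISAT2, featureCounts and mm10, and no versions were seen. Exon length served only for levels per kilobase and the length trend.

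GENCODE mouse release 21 named 55144 of 55385 IDs. EdgeR 4.0.16 (R 4.3.3) was run on all 7 libraries together with hairpin as the only term: filterByExpr with a minimum count of 10, TMM factors, then a robust quasi-likelihood F test, from which standard errors were derived. Benjamini-Hochberg adjustment covered all 15448 genes tested. CPM use TMM-scaled totals, with 0.5 added to each count for logarithms. Members, lists and naming rule were chosen with earlier results of these data known. Each related list is represented by its 3 genes of smallest unadjusted p in each direction and its most abundant gene per kilobase, each marker list by its most abundant gene per kilobase (3 list genes are not reported here), and each member by its nearest gene among those averaging 2 or more in log2 CPM.

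The labels call same-numbered libraries pairs and name no shared day or animal. Across genes, their deviations from group means correlated at 0.306, 0.26 and 0.188, all above the 0.1 taken as pairing, and shChi3l1 3 with shSC 2 reached 0.322. Every 2 libraries differed beyond sampling noise (chi-square of 138.6 or more per gene). DESeq2 1.42.0, limma 3.58.1, other scalings, no filter, left-out libraries and the replicate block were the alternatives. Removal of the length trend (loess, span 0.5) and leaving out both replicate 1 libraries were chosen after seeing the data. The test was checked on simulated data, where it called 0% of 2-fold, 38% of 4-fold and 82% of 8-fold changes. The changed genes averaged 2 or more in log2 CPM, which Epas1 and Adm did not. The simulated libraries held no shift shared by the replicate 1 libraries. Reads are not independent molecules, so depth covers counting error only.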

Additional observations from a re-analysis of the deposited data

Results flagged for a closer look

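Among the 4 shSC libraries, shSC 4 was far above the other 3 in summed tumour and glial markers, at 357 CPM against 42.6 to 72.8 CPM, and in summed red cell markers, at 77.5 CPM against 6.10 to 16.9 CPM. These were 2 of 20 measures examined in this way (the 10 HIF pathway and hypoxia target genes, the 9 marker lists and the share of reads in long genes), where chance alone picks out about 1 in 20. None of the 10 genes stood apart in this way in any shSC library.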

How the results depend on the processing

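Hif1a stayed above 0 and Ndrg1 below 0 in all 16 alternatives, and no alternative brought any of the 10 genes past the adjusted threshold (smallest adjusted p 0.750). For the other 8 genes the sign of the log2 fold change depended on the setting, in 47 of the 160 values over all 10. With the replicate block the values were 0.30 for Epas1, 0.18 for Egln1, -0.073 for Ankrd37 and 0.091 for Pdk1, and the block changed no call. Raw library totals, which put the median of all genes at -0.13 in place of 0.07, gave -0.0013 for Egln3, -0.24 for Bnip3, -0.19 for Ankrd37, -0.093 for Adm and a median of -0.25 for glycolysis. Without both replicate 1 libraries the values were -0.085 for Egln3, -0.89 for Bnip3, -0.48 for Ankrd37, -0.035 for Adm and 0.068 for Pdk1. Without shChi3l1 3 and shSC 4 they were 0.11 for Egln1, 0.30 for Hilpda and 0.10 for Pdk1. Voom with quality weights gave -0.55 for Bnip3, -0.43 for Ankrd37 and 0.13 for Pdk1, and no low-count filter gave -0.053 for Bnip3 and -0.060 for Ankrd37. Offsets for the length trend gave -0.039 for Bnip3 and -0.040 for Ankrd37, where DESeq2's size factors gave -0.011 and its Wald test -0.012. The cause was not tested. DESeq2's Wald test called 1 gene of the whole table, none of the 10, where edgeR called 0 and had 229 at an unadjusted p under 0.05.

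Leaving out 1 library at a time gave log2 fold changes of 0.22 to 1.01 for Hif1a, -1.23 to 0.29 for Epas1, -0.32 to 0.17 for Egln1 and -0.12 to 0.48 for Egln3. The ranges were -0.90 to 0.40 for Bnip3, -0.92 to -0.24 for Ndrg1, -0.40 to 0.45 for Ankrd37, -0.92 to 0.37 for Hilpda, -0.24 to 0.38 for Adm and -0.19 to 0.075 for Pdk1. The median of the 10 ranged from -0.07 to 0.21. Low counts of Epas1 (3 to 67 reads) and Adm (52 to 94 reads) limit what these libraries can show for both.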
